A study of Mus musculus with 8 samples.

Results

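Axon guidance ligands and receptors were followed in poly(A) RNA sequencing of dissected olfactory epithelium. The mice were of the C57BL/6J strain and 40 weeks old. The genes were chosen by symbol alone: semaphorins of classes 3 to 7, plexins, neuropilins, Eph receptors, ephrins, Slits, Robo receptors, netrins, Unc5 receptors and Dcc. This gave 69 of the 25913 genes in the deposited count table, 35 of them ligands and 34 receptors. The study compared 4 libraries titled OMP_IGF1R (numbers 11, 12, 17 and 18) with 4 titled IGF1R_flfl (numbers 1, 2, 3 and 13), to ask what losing the growth factor receptor Igf1r does to RNA in olfactory sensory neurons. The titles state no deletion: OMP_IGF1R was read as the OMP-driven deletion of Igf1r on floxed alleles, and IGF1R_flfl as floxed Igf1r alone. Omp is a gene of mature olfactory sensory neurons, so a Cre driven by it acts there, while the dissected epithelium also holds immature neurons, basal, supporting, glandular and connective tissue cells. The genotype field contradicts this reading of the titles: it gives the knockout to the libraries titled IGF1R_flfl and the control to those titled OMP_IGF1R. Groups are therefore called by their titles, and every fold change is OMP_IGF1R over IGF1R_flfl. Separate animals are not stated for the 4 libraries of a group, so the p-values reflect how far these libraries differ, which may be technical. The running numbers that open the titles fall in separate ranges for the groups, so a batch that follows them cannot be told apart from the group.

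Guidance molecules steer growing axons by attraction or repulsion and are grouped by which ligand binds which receptor. Semaphorins signal through plexins, and secreted class 3 semaphorins mostly need a neuropilin as the part of the receptor that binds them; ephrins bind Eph receptors on neighbouring cells, Slits bind Robo receptors, and netrins bind Dcc and Unc5 receptors. In mice, olfactory sensory neurons are replaced throughout life, and each new axon must find its place in the olfactory bulb. Neuropilin 1 and Sema3a order these axons from front to back, neuropilin 2, Sema3f, Robo2 and Slits order them from top to bottom, and ephrins with Eph receptors take part in sorting them locally.

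The check genes and some of the cell marker lists differed between the groups beside the guidance genes. Igf1r averaged 42.1 ± 6.32 CPM (counts scaled to a common library size) in OMP_IGF1R and 66.5 ± 7.65 CPM in IGF1R_flfl (SD, n = 4 each), and Omp averaged 1969 ± 224 CPM in OMP_IGF1R and 5386 ± 990 CPM in IGF1R_flfl. Both were thus lower in the group that carries the control genotype label. Counts over all exons of Igf1r do not measure the deletion itself. No listed marker of its neurons or supporting cells was at 0 in all libraries. Markers counted below as higher or lower passed an edgeR adjusted p under 0.05. Over all tested genes, 2.83% were higher and 5.37% lower by that rule. Of 20 mature olfactory sensory neuron markers, 15 were lower in OMP_IGF1R and 0 higher. Their summed level was 10912 to 12851 CPM in OMP_IGF1R and 15838 to 21974 CPM in IGF1R_flfl. Of 17 immature neuron markers, 13 were higher and 0 lower (2540 to 2791 CPM in OMP_IGF1R, 1839 to 2077 CPM in IGF1R_flfl), and all 11 neuronal precursor markers were higher (255 to 319 CPM in OMP_IGF1R, 153 to 175 CPM in IGF1R_flfl). Of 8 horizontal basal cell markers, 3 were higher and 0 lower (Krt17, Itgb4 and Lamb3), with a median log2 fold change of 0.39; they summed to 336 to 533 CPM in OMP_IGF1R and 252 to 297 CPM in IGF1R_flfl, with no overlap. The 12 endothelial markers had 0 calls and a median log2 fold change of 0.16. They summed to 217 to 242 CPM in OMP_IGF1R and 154 to 239 CPM in IGF1R_flfl, where the ranges overlap. Also at 0 calls were 10 supporting (sustentacular) cell, 8 Bowman gland, 8 fibroblast, 8 pericyte and smooth muscle and 8 macrophage markers. Their median log2 fold changes were -0.01, 0.02, 0.24, 0.20 and 0.24. Of 11 olfactory ensheathing glia markers, 10 were tested and 1 was lower. In bulk tissue, fewer cells of a type and less RNA per cell cannot be told apart, and the part of these shifts in the guidance gene results was not tested. Total counts were 18802471 to 25585192 per OMP_IGF1R library and 23176815 to 27793375 per IGF1R_flfl library.

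A small set of guidance genes changed, in both directions. Of the 69 genes, 66 passed the filter on low counts and were tested, and Epha6, Epha8 and Epha10, all Eph receptors, did not pass it. At an edgeR adjusted p under 0.05, 10 of the 66 (15.2%) were called, 4 higher and 6 lower in OMP_IGF1R. Over all 17381 genes tested, 8.2% were called, 2.83% higher and 5.37% lower. The ligands held 4 calls among 35 tested genes, 2 higher (Sema3a, Sema4g) and 2 lower (Sema3e, Sema7a). The receptors held 6 calls among 31 tested genes, 2 higher (Plxnd1, Nrp1) and 4 lower (Plxna3, Plxnb3, Unc5b, Ephb1). Semaphorins with their plexins and neuropilins made up 8 of the 10 calls, among 31 tested genes. The remaining calls were Ephb1, among 11 Eph receptors tested, and Unc5b, among 5 Unc5 or Dcc receptors. Ephrins, Slits, Robo receptors and netrins had 0 calls among 19 in edgeR, against 8.2% called over all genes. These are small numbers, and no difference between families was tested. Of those 19, an unadjusted edgeR p under 0.05 was reached by 2 ephrins, 1 Slit, 1 Robo receptor and 2 netrins. Over all tested genes 23.5% reached it. Among the 19, DESeq2 called Efna3 and Slit1, against 11.7% of all genes, and limma voom called Efna3, against 10.6%.

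The other 56 tested genes did not pass the threshold. Signs were balanced, with 33 positive and 33 negative fold changes, a median log2 fold change of 0.01 against -0.01 over all tested genes, and a range of -0.67 to 0.89. The 4 libraries of each group did not overlap for 13 of the 66 genes, 6 higher and 7 lower, against 16.9% of all tested genes (6.57% higher, 10.3% lower). An unadjusted edgeR p under 0.05 was reached by 21 of the 66, against 23.5% of all tested genes. The genes were chosen with these data known and are not independent of each other, so the shares are given side by side with no test.

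**Figure D1:**
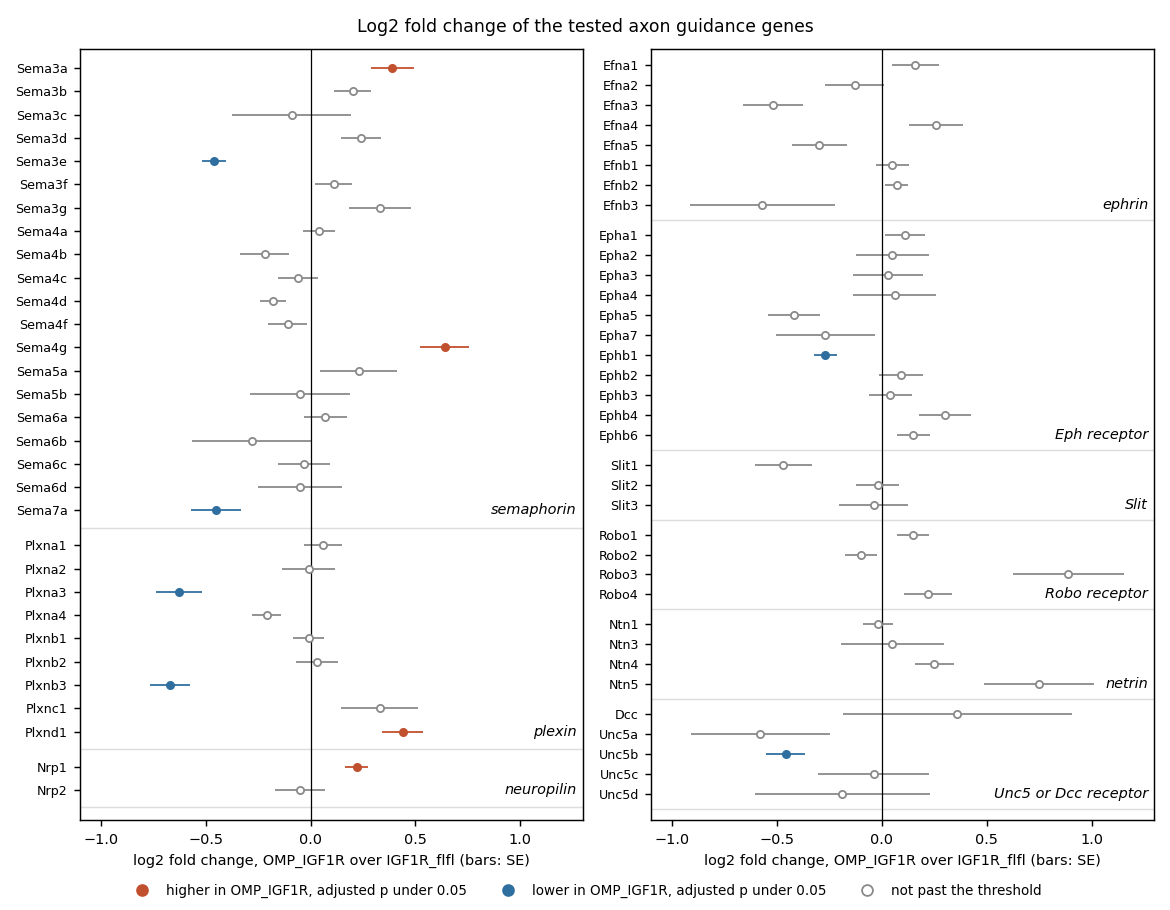
Log2 fold change of each of the 66 tested guidance genes, OMP_IGF1R over IGF1R_flfl, by family, with bars showing the SE of the fit. With libraries scaled to all genes, filled points mark the 10 genes at an edgeR adjusted p under 0.05, 4 higher in OMP_IGF1R (Sema3a, Sema4g, Plxnd1, Nrp1) and 6 lower (Sema3e, Sema7a, Plxna3, Plxnb3, Ephb1, Unc5b).

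The calls differed in how far they rested on single libraries. Sema4g, Sema3e, Plxna3 and Plxnb3 were called in all 8 fits that left out 1 library, with highest adjusted p of 0.0465, 0.0199, 0.0446 and 0.0256. Unc5b was called in 7 of the 8 and reached an adjusted p of 0.0551 without OMP_IGF1R 18. The other calls were less stable, as given beside each gene. DESeq2 called 14 guidance genes, among 11.7% of all genes, and limma voom called 10, among 10.6%, of which 8 were among the 10 called by edgeR. IGF1R_flfl 2 had a high sum of olfactory bulb and oligodendrocyte markers (3215 CPM, 1276 to 1602 CPM in the others), though not every marker was highest there. OMP_IGF1R 17 had 583 CPM of skeletal muscle markers, against 6.29 to 9.54 CPM in the other 3 OMP_IGF1R libraries and 5.81 to 16.7 CPM in IGF1R_flfl. With both left out, 8 guidance genes were called, 2 higher and 6 lower, against 7.47% of all genes, and 6 of them were among the 10. The calls lost in that edgeR fit were Sema3a, Nrp1, Ephb1 and Sema7a, with adjusted p of 0.0563, 0.09, 0.078 and 0.101. When libraries were scaled to mature neuron markers instead of to all genes, the median of all genes moved by over 0.1 on the log2 scale, to 0.55. Those markers were lower in OMP_IGF1R (median log2 fold change -0.61), so scaling to them had to raise fold changes in general. Under that scaling 45 guidance genes were called higher and 0 lower, against 75.3% and 0.667% of all genes. Sema3e, Sema7a, Unc5b and Ephb1 then had positive log2 fold changes of 0.09, 0.13, 0.11 and 0.30.

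Levels between genes were compared as CPM per kilobase of merged exon, which corrects for length. Efna3, a membrane-anchored ephrin-A, had the highest mean level, with 79.5 ± 13.5 CPM per kilobase in OMP_IGF1R and 114 ± 18.5 in IGF1R_flfl (SD, n = 4 each). Plxnb2, a plexin for class 4 semaphorins, followed with a level of 73.2 ± 4.17 CPM per kilobase in OMP_IGF1R and 71.8 ± 9.97 in IGF1R_flfl. Sema7a, a semaphorin held on the membrane by a lipid anchor, came next with a level of 56.6 ± 6.88 CPM per kilobase in OMP_IGF1R and 77.7 ± 11.6 in IGF1R_flfl. The spreads of Efna3 and Plxnb2 touch in OMP_IGF1R, and those of Plxnb2 and Sema7a touch in IGF1R_flfl, so these orders were not resolved. Plxna1, Unc5b, Plxna3 and Plxnb1 were below these, with mean levels over all 8 libraries of 38.9, 26.7, 26.1 and 21.2 CPM per kilobase. At the other end, the netrin receptor Dcc had a level of 0.0287 CPM per kilobase and rested on 2 to 20 counts per library. Epha6, Epha8 and Epha10 were at levels of 0.0411, 0.0416 and 0.0883 CPM per kilobase. By the mean over all 8 libraries, the most abundant member of each family was Sema7a, Plxnb2, Nrp2, Efna3, Ephb1, Slit1, Robo1, Ntn1 and Unc5b. For the Eph receptors the order turned between the groups: Ephb1 had a level of 5.66 ± 0.297 CPM per kilobase in OMP_IGF1R and 6.81 ± 0.316 in IGF1R_flfl, and Ephb4 one of 6.64 ± 0.233 in OMP_IGF1R and 5.38 ± 1.04 in IGF1R_flfl.

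**Figure D2:**
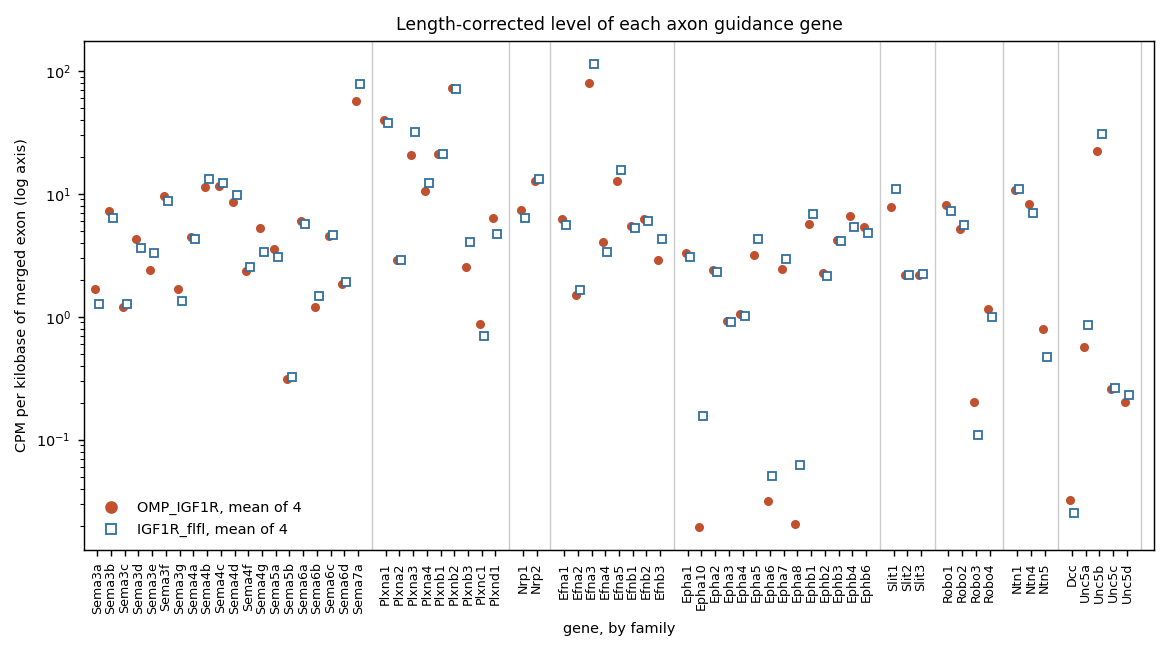
Level of each guidance gene in CPM per kilobase of merged exon, on a log axis, for 68 genes with an exon length, grouped by family. Filled circles are means of the 4 OMP_IGF1R libraries and open squares means of the 4 IGF1R_flfl libraries; Efna3, Plxnb2 and Sema7a are at the top and Dcc, Epha6, Epha8 and Epha10 at the bottom.

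Promoter sequences are shown for the pair of plexins with the largest decreases and for the pair of class 3 semaphorins that were called in opposite directions. Each is the 250 bases before the RefSeq transcript start in GRCm38.p6, on the plus strand, 5′ to 3′. Capitals mark the letters CCCNNGGG, the core of the site bound by the Ebf factors of olfactory neurons; the motif was chosen after the values of these genes were seen.
Plxna3 (chrX:74328816-74329065): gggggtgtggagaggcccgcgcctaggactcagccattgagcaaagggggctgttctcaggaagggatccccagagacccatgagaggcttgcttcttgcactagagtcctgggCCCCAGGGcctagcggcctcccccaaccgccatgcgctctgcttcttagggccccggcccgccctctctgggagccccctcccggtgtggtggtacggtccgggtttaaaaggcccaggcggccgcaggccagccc
Plxnb3 (chrX:73756853-73757102): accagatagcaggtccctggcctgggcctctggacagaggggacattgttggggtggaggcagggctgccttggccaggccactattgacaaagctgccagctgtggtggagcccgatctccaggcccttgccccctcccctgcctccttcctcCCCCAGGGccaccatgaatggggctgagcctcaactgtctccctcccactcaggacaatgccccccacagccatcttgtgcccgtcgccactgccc
Sema3e (chr5:14025026-14025275): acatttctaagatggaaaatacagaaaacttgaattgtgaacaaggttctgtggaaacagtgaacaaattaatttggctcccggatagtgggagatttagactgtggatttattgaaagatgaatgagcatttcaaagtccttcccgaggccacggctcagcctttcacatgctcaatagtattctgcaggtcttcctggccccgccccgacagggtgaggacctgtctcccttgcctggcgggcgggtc
Sema3a (chr5:13396534-13396783): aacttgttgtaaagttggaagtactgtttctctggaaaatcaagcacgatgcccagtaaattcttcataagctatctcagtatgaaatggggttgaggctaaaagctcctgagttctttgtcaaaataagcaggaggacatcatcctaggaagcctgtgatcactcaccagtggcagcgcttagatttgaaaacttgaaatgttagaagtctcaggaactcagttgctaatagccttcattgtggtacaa
RefSeq promoters were matched for 59 of the 69 genes, as 75 promoters. CCCNNGGG reads the same on both strands and was found in the promoters of 2 of the 10 called genes, Plxna3 and Plxnb3. It was in 16 of the 75 guidance gene promoters (21.3%) and in 11.8% of all 32851 promoters of that length. TAATTA, a core letter pattern of homeodomain factors that also reads the same on both strands, was in 0 of the 10, in 3 of the 75 (4%) and in 4.84% of all promoters. The motifs have no fixed letter in common and cannot overlap. A match is a description of the letters, not a binding site.

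Class 3 semaphorins, the secreted ligands of neuropilin and plexin receptors, held a call in each direction among 7 genes. Sema3e (ENSMUSG00000063531, GRCm38 chromosome 5, 14025276 to 14256689), which binds Plxnd1 without needing a neuropilin, had 22.1, 22.2, 23.0 and 21.1 CPM in OMP_IGF1R 11, 12, 17 and 18. It had 31.5, 28.8, 29.9 and 31.6 CPM in IGF1R_flfl 1, 2, 3 and 13. All OMP_IGF1R libraries were below all IGF1R_flfl libraries, and its coefficient of variation was the smallest among the tested guidance genes in IGF1R_flfl. Sema3e fell by 0.46 on the log2 scale (SE 0.0567, edgeR adjusted p = 0.00379), the smallest adjusted p of the 69 genes. Its promoter, printed above, held neither motif.

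Sema3a (ENSMUSG00000028883, chromosome 5, 13396784 to 13602565), the repulsive ligand of Nrp1, lies near Sema3e and moved the other way. It had 21.8, 26.4, 20.8 and 23.6 CPM in OMP_IGF1R 11, 12, 17 and 18, against 18.4, 17.1, 15.3 and 19.8 CPM in IGF1R_flfl 1, 2, 3 and 13. The groups did not overlap, and all OMP_IGF1R libraries were higher. Sema3a rose by a log2 fold change of 0.39 (edgeR adjusted p = 0.0438, SE 0.101). The call was kept without OMP_IGF1R 17 or IGF1R_flfl 13 and lost without any of the other 6 libraries, with an adjusted p of up to 0.127. It was also lost in edgeR with no filter beyond 1 count (adjusted p = 0.0543). Among the other class 3 genes, Sema3f, the ligand of Nrp2, had 55.6, 45.1, 48.1 and 49.7 CPM in OMP_IGF1R 11, 12, 17 and 18, against 49.8, 42.9, 49.8 and 40.6 CPM in IGF1R_flfl 1, 2, 3 and 13. Those groups overlapped (log2 fold change 0.11, SE 0.0872, edgeR adjusted p = 0.474). Sema3b, Sema3c, Sema3d and Sema3g gave log2 fold changes of 0.20, -0.09, 0.24 and 0.33, none past the threshold. Sema3c, one of the ligands that Plxnd1 can also receive, was uneven within IGF1R_flfl, from 4.20 CPM in library 3 to 12.5 CPM in library 2.

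Of 6 class 4 semaphorins, which are membrane proteins that signal to class B plexins and others, only Sema4g was called. Sema4g (ENSMUSG00000025207, chromosome 19, 44989101 to 45003397), a ligand of Plxnb2 in mouse cerebellum, had 51.3, 40.5, 42.2 and 48.6 CPM in OMP_IGF1R 11, 12, 17 and 18. In IGF1R_flfl 1, 2, 3 and 13 it had 30.7, 27.0, 34.7 and 24.3 CPM. The lowest OMP_IGF1R library was above the highest IGF1R_flfl library. Its log2 fold change of 0.64 (edgeR adjusted p = 0.013, SE 0.117) was the largest increase among the called guidance genes. Sema4a, Sema4b, Sema4c, Sema4d and Sema4f had log2 fold changes between -0.22 and 0.04 and did not pass the threshold. Sema4d, a ligand of Plxnb1, averaged 65.9 ± 2.06 CPM in OMP_IGF1R and 74.5 ± 5.99 CPM in IGF1R_flfl (log2 fold change -0.18, edgeR adjusted p = 0.121), with the ranges overlapping by a narrow margin.

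Neither of the class 5 semaphorins nor any of the 4 of class 6 was called. Sema5a, a transmembrane ligand of Plxna1, Plxna3 and Plxnb3, averaged 66.5 ± 6.53 CPM in OMP_IGF1R and 56.9 ± 15.3 CPM in IGF1R_flfl (log2 fold change 0.23, edgeR adjusted p = 0.506). Its lowest value, 34.8 CPM, was in IGF1R_flfl 3. Sema6a, a transmembrane ligand of Plxna2 and Plxna4, averaged 52.7 ± 4.07 CPM in OMP_IGF1R and 50.3 ± 7.41 CPM in IGF1R_flfl (log2 fold change 0.07). Sema5b, Sema6b, Sema6c and Sema6d had log2 fold changes of -0.05, -0.28, -0.03 and -0.05.

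Sema7a (ENSMUSG00000038264, chromosome 9, 57940113 to 57962864) is made by olfactory sensory neurons in mice and acts at their contacts in the bulb through Plxnc1. It had 164, 217, 176 and 190.0 CPM in OMP_IGF1R 11, 12, 17 and 18, against 271, 241, 301 and 212 CPM in IGF1R_flfl 1, 2, 3 and 13. The groups overlapped, because OMP_IGF1R 12 was above IGF1R_flfl 13. Sema7a fell by 0.45 on the log2 scale (SE 0.119, edgeR adjusted p = 0.0478). This call was kept without IGF1R_flfl 13 and lost without any other single library (adjusted p up to 0.123). It was also lost with DESeq2 size factors in edgeR (adjusted p = 0.0546), with upper-quartile factors in edgeR (0.0608), with no filter in edgeR (0.0605) and in limma voom (0.0532).

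Among the 9 plexins, the receptors of semaphorins, Plxna3 and Plxnb3 fell, Plxnd1 rose and 6 did not pass the test. Plxna3 (ENSMUSG00000031398, chromosome X, 74329066 to 74344689), a class A plexin that works with neuropilins, had 165, 171, 161 and 150.0 CPM in OMP_IGF1R 11, 12, 17 and 18. In IGF1R_flfl 1, 2, 3 and 13 it had 252, 209, 307 and 229 CPM. OMP_IGF1R libraries were all lower, and the IGF1R_flfl libraries were spread more widely (SD 42.0 CPM) than the OMP_IGF1R libraries (SD 8.72 CPM). Plxna3 fell by 0.63 on the log2 scale (SE 0.11, edgeR adjusted p = 0.0117).

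Plxnb3 (ENSMUSG00000031385, chromosome X, 73757090 to 73772514), a receptor of Sema5a, had 17.3, 14.9, 17.7 and 16.6 CPM in OMP_IGF1R 11, 12, 17 and 18. In IGF1R_flfl 1, 2, 3 and 13 it had 29.2, 25.2, 28.8 and 22.8 CPM. Every OMP_IGF1R library was below every IGF1R_flfl library. Its log2 fold change of -0.67 (edgeR adjusted p = 0.00568, SE 0.095) was the largest decrease among the tested guidance genes. Plxna3 and Plxnb3 lie on the same chromosome. They were the called genes whose promoters held CCCNNGGG, 2 of 10, against 21.3% of the guidance gene promoters. Scaled to mature neuron markers, Plxna3 had a log2 fold change of -0.05 (edgeR adjusted p = 0.658) and Plxnb3 of -0.11 (0.329), so neither passed.

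Plxnd1 (ENSMUSG00000030123, chromosome 6, 115954811 to 115995005), the receptor of Sema3e and known for its role in blood vessels, had 51.1, 46.5, 39.7 and 49.2 CPM in OMP_IGF1R 11, 12, 17 and 18. In IGF1R_flfl 1, 2, 3 and 13 it had 39.6, 34.5, 30.4 and 33.0 CPM. The groups did not overlap, although OMP_IGF1R 17 was barely above IGF1R_flfl 1. Plxnd1 rose by a log2 fold change of 0.44 (edgeR adjusted p = 0.0278, SE 0.0983). The call was kept without OMP_IGF1R 17, IGF1R_flfl 1 or IGF1R_flfl 2 and lost without any of the other 5 libraries (adjusted p up to 0.0867).

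The more abundant plexins did not pass the test. Plxnb2 had 596, 545, 530 and 588 CPM in OMP_IGF1R 11, 12, 17 and 18, against 593, 447, 623 and 556 CPM in IGF1R_flfl 1, 2, 3 and 13. The OMP_IGF1R values lay within the IGF1R_flfl range (log2 fold change 0.03, SE 0.102, edgeR adjusted p = 0.909). Plxna1, a partner of Nrp1, had 378, 375, 308 and 376 CPM in OMP_IGF1R 11, 12, 17 and 18, against 332, 324, 394 and 326 CPM in IGF1R_flfl 1, 2, 3 and 13. OMP_IGF1R 17 was the lowest and IGF1R_flfl 3 the highest, each opposite to the rest of its group (log2 fold change 0.06, SE 0.0918, edgeR adjusted p = 0.731), and 10.7% of the exon bases are shared with a gene on the other strand. Plxnb1 and Plxna2 each gave a log2 fold change of -0.01. Plxna4, a receptor for Sema3a and Sema6a, gave -0.21 (edgeR adjusted p = 0.0962) and passed with DESeq2 and with limma voom. Plxnc1, the receptor of Sema7a, had 6.43, 8.14, 7.03 and 7.53 CPM in OMP_IGF1R 11, 12, 17 and 18, against 6.45, 6.55, 3.73 and 6.40 CPM in IGF1R_flfl 1, 2, 3 and 13. Only OMP_IGF1R 11 fell within the IGF1R_flfl range, and IGF1R_flfl 3 was far below the rest (log2 fold change 0.33, SE 0.183, edgeR adjusted p = 0.309).

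**Figure D3:**
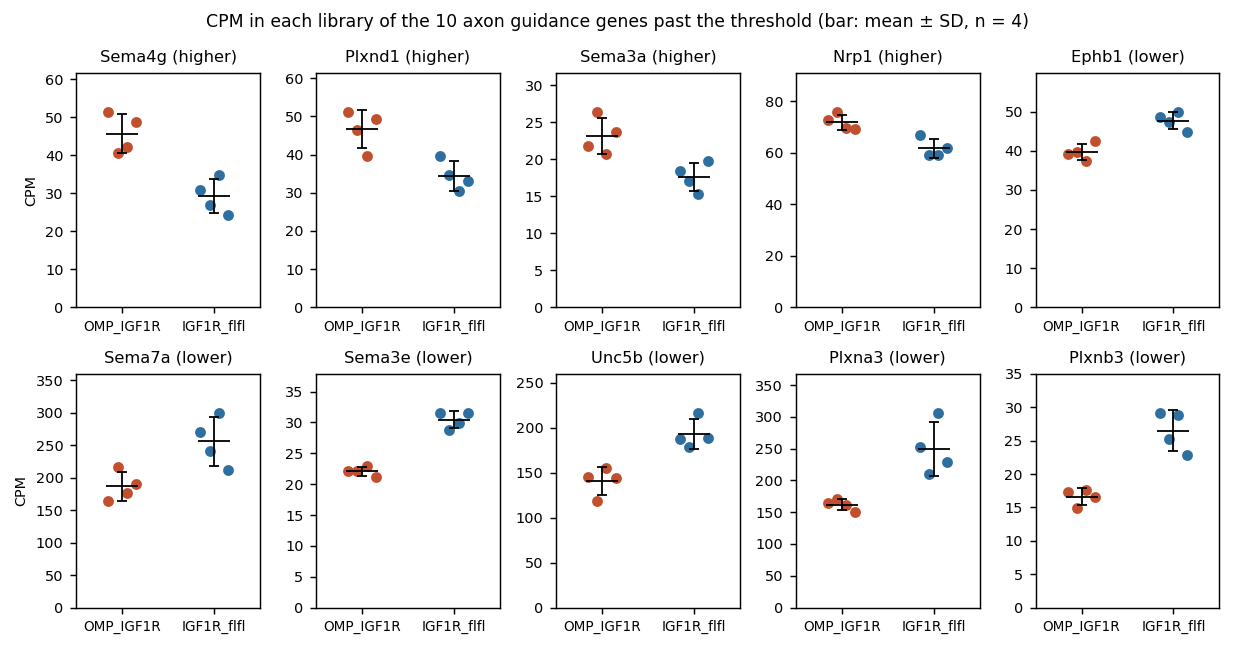
CPM in each library of the 10 guidance genes at an edgeR adjusted p under 0.05, with OMP_IGF1R on the left and IGF1R_flfl on the right of each panel; points are libraries and bars show the mean ± SD (n = 4 each). Points of the groups do not overlap except for Sema7a, where OMP_IGF1R 12 (217 CPM) is above IGF1R_flfl 13 (212 CPM).

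The neuropilins differed in their calls. Nrp1 (ENSMUSG00000025810, chromosome 8, 128359073 to 128505462), which binds Sema3a, had 72.7, 75.7, 69.5 and 69.3 CPM in OMP_IGF1R 11, 12, 17 and 18. It had 67.0, 59.2, 59.0 and 61.8 CPM in IGF1R_flfl 1, 2, 3 and 13. The OMP_IGF1R libraries were all higher, by a small margin. Its log2 fold change of 0.22 (edgeR adjusted p = 0.044, SE 0.0557) was the smallest in size among the called genes, and it passed in 1 of the 8 fits that left out a library, the fit without IGF1R_flfl 1 (adjusted p up to 0.123 in the others). It was also lost in limma voom (adjusted p = 0.0637). Nrp2, which binds Sema3f, had 155, 156, 138 and 149 CPM in OMP_IGF1R 11, 12, 17 and 18. In IGF1R_flfl 1, 2, 3 and 13 it had 197, 130, 138 and 156 CPM. The groups overlapped fully, with the highest and the lowest value both in IGF1R_flfl (log2 fold change -0.05, SE 0.12, edgeR adjusted p = 0.838). The difference between the responses of Nrp1 and Nrp2 was not tested.

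None of the 8 ephrins was called by edgeR, and 4 of them had positive and 4 negative fold changes. Efna3, the guidance gene with the highest mean level per kilobase, had 215, 149, 221 and 188 CPM in OMP_IGF1R 11, 12, 17 and 18, against 271, 239, 342 and 258 CPM in IGF1R_flfl 1, 2, 3 and 13. All OMP_IGF1R libraries were lower. The log2 fold change was -0.52 (SE 0.143, edgeR adjusted p = 0.0551), just outside the threshold, and it passed without IGF1R_flfl 2 (adjusted p = 0.0397). An antisense gene covers 14.1% of its exon bases, and whether reads were counted by strand is not given. Efna5, a ligand of EphA receptors that marks axons of particular odorant receptors in mice, had 45.7, 46.6, 59.6 and 53.9 CPM in OMP_IGF1R 11, 12, 17 and 18, against 67.7, 61.3, 74.9 and 48.9 CPM in IGF1R_flfl 1, 2, 3 and 13. IGF1R_flfl 13 lay among the OMP_IGF1R values (log2 fold change -0.30, SE 0.131, edgeR adjusted p = 0.207). Efna1, Efna2, Efna4, Efnb1 and Efnb2 had log2 fold changes of 0.16, -0.13, 0.26, 0.05 and 0.07, and Efnb2, a ligand of Ephb4 in vessels, averaged 43.0 ± 1.91 CPM in OMP_IGF1R and 41.0 ± 2.04 CPM in IGF1R_flfl.

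Of the 11 Eph receptors tested, 1 fell and 10 did not pass the test. Ephb1 (ENSMUSG00000032537, chromosome 9, 101922128 to 102354693), a receptor of ephrin-B ligands, had 39.1, 39.8, 37.4 and 42.4 CPM in OMP_IGF1R 11, 12, 17 and 18. It had 48.7, 47.4, 49.8 and 44.7 CPM in IGF1R_flfl 1, 2, 3 and 13. Every OMP_IGF1R library was lower than every IGF1R_flfl library. Ephb1 fell by 0.27 on the log2 scale (SE 0.0566, edgeR adjusted p = 0.023). The call was kept without OMP_IGF1R 18, IGF1R_flfl 2 or IGF1R_flfl 13 and lost without any of the other 5 (adjusted p up to 0.0673), and 2.17% of its exon bases are shared with a gene on the other strand.

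Epha5, a receptor of ephrin-A ligands, had 45.8, 64.5, 49.7 and 53.6 CPM in OMP_IGF1R 11, 12, 17 and 18, against 62.5, 67.4, 69.5 and 87.8 CPM in IGF1R_flfl 1, 2, 3 and 13. OMP_IGF1R 12 was above IGF1R_flfl 1, so the groups overlapped. The log2 fold change was -0.42 (SE 0.126, edgeR adjusted p = 0.0731), and it passed without OMP_IGF1R 12 (adjusted p = 0.0495). Ephb4, the vessel receptor of Efnb2, averaged 30.8 ± 1.08 CPM in OMP_IGF1R and 25.0 ± 4.83 CPM in IGF1R_flfl (log2 fold change 0.30, edgeR adjusted p = 0.176). Epha7, another receptor of ephrin-A ligands, had the largest coefficient of variation within OMP_IGF1R among the 66 tested genes, at 24.2, 38.2, 18.8 and 16.2 CPM in libraries 11, 12, 17 and 18. It had 26.2, 28.8, 27.8 and 34.5 CPM in IGF1R_flfl 1, 2, 3 and 13, within the OMP_IGF1R range (log2 fold change -0.27, SE 0.236). Epha1, Epha2, Epha3, Epha4, Ephb2, Ephb3 and Ephb6 had log2 fold changes between 0.03 and 0.15.

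None of the 3 Slits or 4 Robo receptors passed the threshold in edgeR. Slit1, a repulsive ligand of Robo receptors, had 47.5, 42.7, 46.4 and 49.6 CPM in OMP_IGF1R 11, 12, 17 and 18, against 75.7, 51.7, 78.0 and 53.3 CPM in IGF1R_flfl 1, 2, 3 and 13. The groups did not overlap, and IGF1R_flfl 1 and 3 were well above the other IGF1R_flfl libraries. The log2 fold change was -0.47 (SE 0.137, edgeR adjusted p = 0.0664); it passed without IGF1R_flfl 2 (0.0226) and without IGF1R_flfl 13 (0.0478). Slit2 averaged 55.2 ± 6.33 CPM in OMP_IGF1R and 55.9 ± 6.74 CPM in IGF1R_flfl (log2 fold change -0.02, SE 0.102), and Slit3 gave -0.04 (SE 0.163).

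Robo2, which olfactory axons use to sort from top to bottom, had 92.3, 81.0, 85.5 and 95.7 CPM in OMP_IGF1R 11, 12, 17 and 18, against 87.8, 106, 97.2 and 89.7 CPM in IGF1R_flfl 1, 2, 3 and 13 (log2 fold change -0.10, SE 0.076, edgeR adjusted p = 0.47). Robo1, which binds the same Slits, had 128, 144, 120.0 and 141 CPM in OMP_IGF1R 11, 12, 17 and 18, against 123, 109, 118 and 130.3 CPM in IGF1R_flfl 1, 2, 3 and 13 (log2 fold change 0.15, SE 0.0765, edgeR adjusted p = 0.287). Both pairs of groups overlapped. Robo3, a divergent receptor known from commissural axons, had 1.38, 1.66, 1.15 and 1.38 CPM in OMP_IGF1R 11, 12, 17 and 18, against 0.942, 0.419, 0.833 and 0.818 CPM in IGF1R_flfl 1, 2, 3 and 13. The groups did not overlap, and the log2 fold change of 0.89 was the largest among the tested guidance genes, but it rested on 11 to 44 counts per library (SE 0.263, edgeR adjusted p = 0.0729). Robo4, a receptor of blood vessel cells, averaged 6.13 ± 0.11 CPM in OMP_IGF1R and 5.25 ± 0.62 CPM in IGF1R_flfl (log2 fold change 0.22, edgeR adjusted p = 0.279).

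Among netrins and their receptors, Unc5b alone was called. Unc5b (ENSMUSG00000020099, chromosome 10, 60762610 to 60831581), a repulsive netrin receptor, had 145, 119, 155 and 144 CPM in OMP_IGF1R 11, 12, 17 and 18. It had 188, 178, 217 and 189 CPM in IGF1R_flfl 1, 2, 3 and 13. The groups did not overlap, and all OMP_IGF1R libraries were lower. Unc5b fell by 0.46 on the log2 scale (SE 0.0914, edgeR adjusted p = 0.0184).

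Ntn1, the secreted ligand of Dcc and Unc5 receptors, had 69.8, 69.6, 64.9 and 67.0 CPM in OMP_IGF1R 11, 12, 17 and 18, against 67.9, 61.2, 78.2 and 67.9 CPM in IGF1R_flfl 1, 2, 3 and 13. The OMP_IGF1R values lay within the IGF1R_flfl range (log2 fold change -0.02, SE 0.0719, edgeR adjusted p = 0.897). Ntn4, a netrin of basement membranes, had 28.6, 33.0, 29.7 and 32.9 CPM in OMP_IGF1R 11, 12, 17 and 18. In IGF1R_flfl 1, 2, 3 and 13 it had 28.3, 27.7, 21.4 and 27.2 CPM. These groups did not overlap, yet the log2 fold change of 0.25 did not pass (edgeR adjusted p = 0.149). Ntn5, at 1.77 ± 0.233 CPM in OMP_IGF1R and 1.05 ± 0.395 CPM in IGF1R_flfl, gave 0.75 (edgeR adjusted p = 0.122), with 23.4% of its exon bases shared with Sec1 on the other strand. It passed without IGF1R_flfl 1. Ntn3, another netrin, gave 0.05. Dcc, the attractive netrin receptor, had 0.306, 0.527, 0.442 and 0.422 CPM in OMP_IGF1R 11, 12, 17 and 18, against 0.254, 0.762, 0.0793 and 0.227 CPM in IGF1R_flfl 1, 2, 3 and 13. Its highest and lowest values were both in IGF1R_flfl (log2 fold change 0.36, SE 0.546, edgeR adjusted p = 0.744).

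Ligands and receptors known to bind each other were set side by side. The list of pairs was partial, and the called ligand Sema4g was among the genes not in it. The 20 ligands listed and their receptors made 48 pairs, and 16 pairs had at least 1 called gene. Both genes were called in 3 pairs. In the pair of Sema3a and Nrp1 both were higher in OMP_IGF1R (log2 fold changes 0.39 and 0.22). Sema3a (0.39) and Plxna3 (-0.63) were called in opposite directions, and so were Sema3e (-0.46) and Plxnd1 (0.44). For Sema7a (-0.45) and Plxnc1 (0.33) only the ligand passed. For Sema3f (0.11) and Nrp2 (-0.05), for Slit2 (-0.02) and Robo1 (0.15), and for Ntn1 (-0.02) and Dcc (0.36) neither did. The pairs share genes and libraries, so these values are a description and no difference between pair members was tested.

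Within groups, the IGF1R_flfl libraries were less alike than the OMP_IGF1R libraries. The median coefficient of variation of the 66 tested genes was 8.49% in OMP_IGF1R and 14.3% in IGF1R_flfl, and it was larger in IGF1R_flfl for 55 of the 66. In OMP_IGF1R it ran from 1.79% for Robo4 to 40.4% for Epha7. In IGF1R_flfl it ran from 4.46% for Sema3e to 90.1% for Dcc. IGF1R_flfl 3 had the highest value of all 8 libraries for 15 genes and the lowest for 22, and IGF1R_flfl 2 had the highest for 13 and the lowest for 14. OMP_IGF1R 17 had the highest value for 1 gene. The summed level of all 69 genes was 3788 ± 129 CPM in OMP_IGF1R and 4096 ± 278 CPM in IGF1R_flfl. The groups overlapped in this sum, with 3906 CPM in OMP_IGF1R 11 and 3761 CPM in IGF1R_flfl 2.

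**Figure D4:**
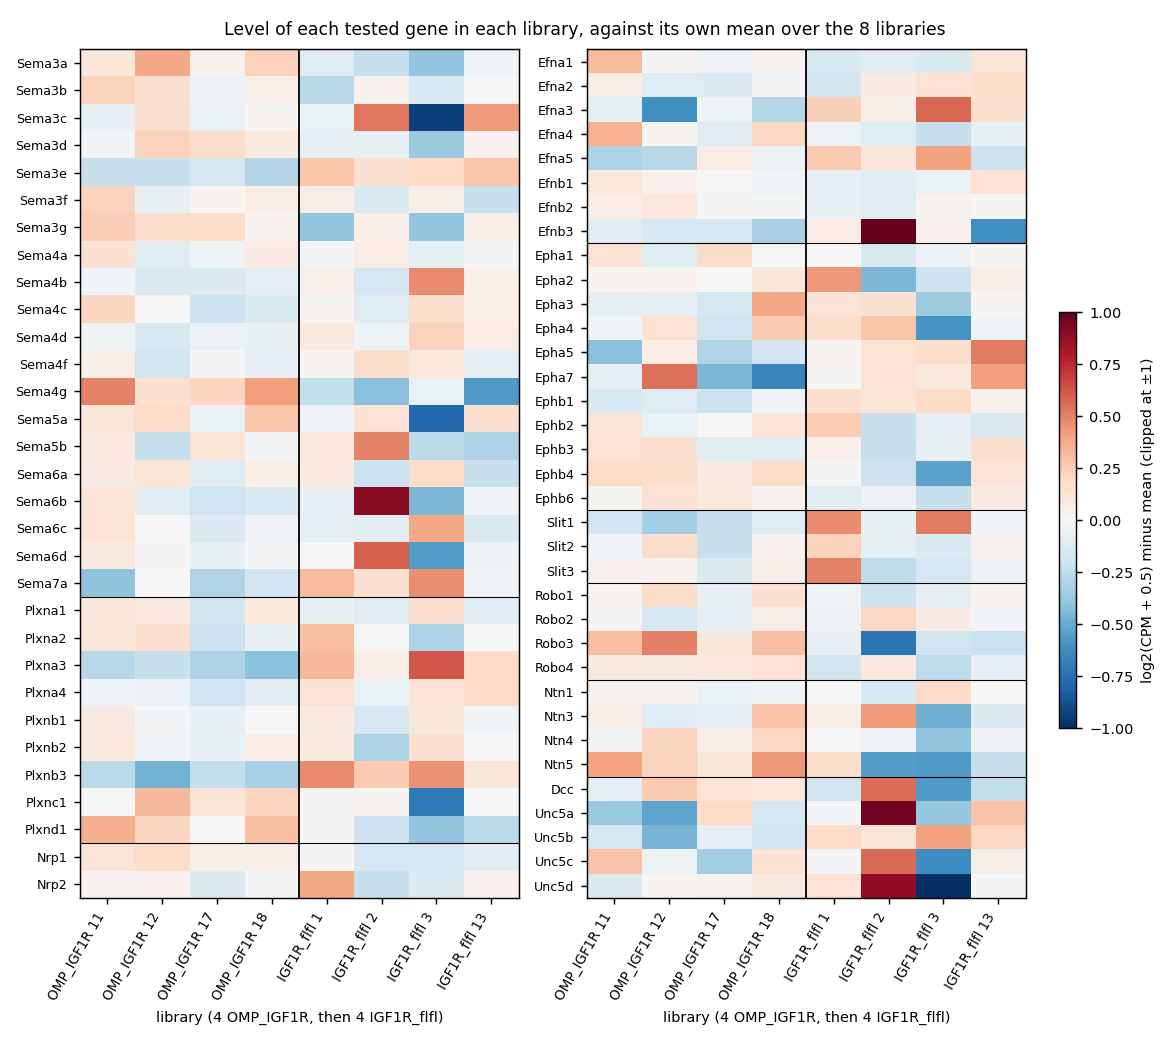
Level of each of the 66 tested guidance genes in each library, as log2(CPM + 0.5) minus the gene's mean over the 8 libraries, with red for higher and blue for lower; the 4 OMP_IGF1R libraries stand left of the 4 IGF1R_flfl libraries. The strongest colours are in IGF1R_flfl 2 (Efnb3, Unc5a, Unc5d and Sema6b high) and IGF1R_flfl 3 (Sema3c, Sema5a and Unc5d low).

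IGF1R_flfl 2 stood apart for a set of guidance genes. In 7 of the 69 genes its level was over 1.5 times that of the highest other library. No such count over all genes or for another library is given here, so whether it is particular to guidance genes was not tested. Epha10 had 4.19 CPM in IGF1R_flfl 2 and 0 to 0.255 CPM in the other 7 libraries, Epha8 had 1.10 CPM against 0 to 0.153 CPM, and Epha6 had 0.762 CPM against 0 to 0.226 CPM. All 3 are receptors of ephrin-A ligands, and they are the 3 genes that did not pass the filter. A count of 0 for Epha10 in IGF1R_flfl 1 allows up to 0.109 CPM, and counts of 0 for Epha6 and Epha8 in IGF1R_flfl 13 allow up to 0.136 CPM, counting error only. Efnb3, an ephrin-B known as a midline barrier to axons in the spinal cord, had 25.8 CPM in IGF1R_flfl 2 and 6.68 to 11.1 CPM in the others.

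The other 3 genes were Sema6b, a class 6 semaphorin (9.98 CPM in IGF1R_flfl 2, 3.61 to 5.61 CPM in the others), and the netrin receptors Unc5a (5.91 CPM, 1.77 to 3.50 CPM in the others) and Unc5d (3.85 CPM, 0.634 to 2.10 CPM in the others). The summed markers of olfactory bulb and oligodendrocytes were also highest in IGF1R_flfl 2. Their sum was 1276 to 1361 CPM in OMP_IGF1R. In IGF1R_flfl it was 3215 CPM in library 2 and 1362 to 1602 CPM in the other 3. Of the 15 markers 0 were at 0 in all libraries, and 2, Eomes and Pcp4l1, were called lower in OMP_IGF1R. Neither of these was highest in IGF1R_flfl 2, nor was Slc17a7. Eomes had 15.7 CPM in IGF1R_flfl 2 and 20.6 CPM in IGF1R_flfl 1. Pcp4l1 had 725 CPM in IGF1R_flfl 2 and 814 CPM in IGF1R_flfl 3. Mbp, a myelin protein, had 1003 CPM in IGF1R_flfl 2 and 38.5 to 67.6 CPM in the others. With IGF1R_flfl 2 and OMP_IGF1R 17 left out, the log2 fold change of Efnb3 was -0.06, against -0.57 with all libraries, that of Sema6b 0.16 against -0.28, that of Unc5d 0.28 against -0.19, and that of Unc5a -0.39 against -0.58. None of the 4 was called with all libraries. These genes were picked for their high level in IGF1R_flfl 2, so leaving that library out had to raise their fold changes. The part of bulb tissue in these values was not tested.

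**Figure D5:**
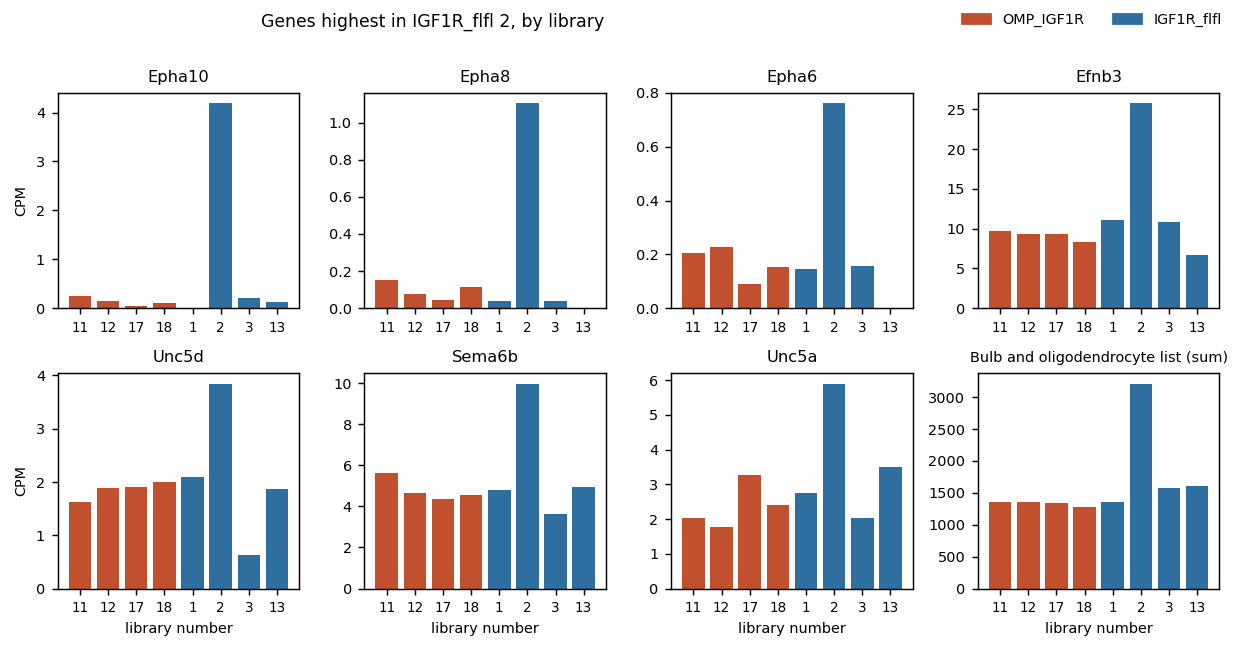
CPM in each library of the 7 guidance genes whose level in IGF1R_flfl 2 was over 1.5 times that of any other library, and the summed CPM of olfactory bulb and oligodendrocyte markers in the last panel. Bars for OMP_IGF1R libraries stand left of those for IGF1R_flfl; library 2 is the tallest bar in every panel, with 4.19 CPM for Epha10 and 3215 CPM for the markers.

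Genes that act beside the named families were counted from lists of known pathway members. Of 23 other guidance ligands, receptors and partners, 22 were tested, 2 were higher and 0 lower in OMP_IGF1R, with a median log2 fold change of 0.01 against -0.01 for all genes and the background of 8.2% called. Cxcr4, the receptor of the chemokine Cxcl12, averaged 28.4 ± 1.98 CPM in OMP_IGF1R and 19.6 ± 1.22 CPM in IGF1R_flfl (log2 fold change 0.54, SE 0.0723, edgeR adjusted p = 0.00498); it is also in the neuronal precursor list. Draxin, a secreted repellent listed in the files as 2610109H07Rik, averaged 5.11 ± 0.508 CPM in OMP_IGF1R and 2.84 ± 0.692 CPM in IGF1R_flfl (log2 fold change 0.84, SE 0.178, edgeR adjusted p = 0.0221).

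Of 44 genes that relay guidance signals inside the growth cone, all tested, 4 were higher and 3 lower, against 2.83% higher and 5.37% lower over all genes, with a median log2 fold change of 0.04. Dpysl3, a collapsin response mediator protein of growing axons, averaged 351 ± 29.3 CPM in OMP_IGF1R and 190 ± 22.1 CPM in IGF1R_flfl (log2 fold change 0.89, SE 0.0946, edgeR adjusted p = 0.00278). Its relative Dpysl5 had a log2 fold change of 0.63 (edgeR adjusted p = 0.012) and the actin-binding Ablim1 one of 0.45 (0.0125); these 3 genes are also in the immature neuron list. The fourth was the adaptor Efs (0.34), which lay at the threshold, with an edgeR adjusted p of 0.05 after rounding. Pak3, a kinase acting downstream of Rac and Cdc42, averaged 55.3 ± 3.70 CPM in OMP_IGF1R and 79.5 ± 2.77 CPM in IGF1R_flfl (log2 fold change -0.52, SE 0.0572, edgeR adjusted p = 0.00278). The phosphatidylinositol transfer protein Pitpna (-0.32) and the Slit and Robo pathway regulator Srgap2 (-0.22) were also lower. Of 25 adhesion molecules of axon sorting, 24 were tested and 1 was lower, against 5.37% of all genes: Kirrel3, which sorts olfactory axons in mice, averaged 37.5 ± 5.02 CPM in OMP_IGF1R and 50.6 ± 5.19 CPM in IGF1R_flfl (log2 fold change -0.43, SE 0.102, edgeR adjusted p = 0.0318). The median of that list was -0.12.

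In the authors' deposited table of their own comparison, 14 guidance genes had an adjusted p under 0.05, against 13.4% of the 15891 genes with a value there. The sign of that table matches OMP_IGF1R over IGF1R_flfl for all 1425 genes called here. The authors' deposited table gave 4 positive and 10 negative log2 fold changes among the 14, the 10 genes called here and 4 more that were lower. Those in the authors' deposited table were Efna3 (-0.45), Slit1 (-0.40), Epha5 (-0.37) and Plxna4 (-0.19).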

How the data were processed

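Samples were grouped by title, with 4 libraries each. The authors' deposited table holds raw counts per gene and library. Per the submitters' processing notes, the tools were TopHat2 2.0.14, Trim Galore 0.3.7, SAMtools 1.2 and DESeq2, and the build was GRCm38. The counting tool and any use of strand were not given in the sources used here. The authors' deposited comparison table holds a mean normalized signal, log2 fold changes, a test score and p-values per gene, per the file headers; the log2 fold changes and adjusted p-values were used for description alone.

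Counts were tested with edgeR 4.0.16 in R 4.3.3 (quasi-likelihood F-test, TMM factors, filterByExpr), adjusted by Benjamini-Hochberg over the 17381 tested genes, with a threshold of 0.05. CPM uses TMM effective library sizes. Merged exon lengths came from GENCODE M21 (GRCm38) and were found for 68 of the 69 genes. Promoters came from RefSeq (GRCm38.p6). The mean chi-square between replicates, per gene, was 11.9 to 109, so no library was a copy of another. The fit was tested on simulated counts. A floor for a count of 0 is 3 counts and covers counting error only. Values in each library were given for called genes, for the member with the most reads in each class and for Nrp1, Nrp2, Plxna1, Plxnc1, Sema3a, Sema3f, Sema7a, Robo2, Slit1, Efna5, Epha5, Dcc and Ntn1. Other genes with such values, among them Robo3, Epha7, Ntn4 and the genes high in IGF1R_flfl 2, were chosen after their values were seen. The members, gene lists and this rule were chosen with earlier results of these data known. Alternatives were DESeq2 size factors, upper-quartile factors, mature neuron scaling, limma 3.58.1 voom with sample weights, DESeq2 1.42.0, a minimum of 1 CPM in 4 libraries, a minimum of 1 count, and libraries left out. The 8 columns of standard deviations were not used.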

Additional observations from a re-analysis of the deposited data

Results flagged for a closer look

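In groups of 4 libraries, the highest or lowest value was set against the other 3 by the gap to its nearest neighbour over the whole range, with Dixon's critical value for 4 values. Chance alone passes this in about 1 in 20 groups; 12 of the 138 gene values by group did so.

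In IGF1R_flfl 3, Sema6c (35.3 CPM, 24.3 to 25.2 CPM in the other 3 of its group) and Plxna1 (394 CPM, 324 to 332 CPM) were far above the rest, and Plxnc1 (3.73 CPM, 6.40 to 6.55 CPM) and Ntn4 (21.4 CPM, 27.2 to 28.3 CPM) far below. In IGF1R_flfl 2, Epha10 (4.19 CPM, 0 to 0.198 CPM) and Epha8 (1.10 CPM, 0 to 0.0397 CPM) stood above. In IGF1R_flfl 13, the ephrins Efna1 (11.8 CPM, 9.71 to 9.83 CPM) and Efnb1 (20.6 CPM, 17.2 to 17.6 CPM) stood above.

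In OMP_IGF1R 17, Plxna1 (308 CPM, 375 to 378 CPM) and Slit3 (11.9 CPM, 13.6 to 13.9 CPM) stood below the other 3. In OMP_IGF1R 18, Epha3 (10.5 CPM, 6.99 to 7.42 CPM) and Robo4 (6.30 CPM, 6.07 to 6.11 CPM) stood above.

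Summed cell marker lists showed the same for OMP_IGF1R 17 in neuronal precursor (255 CPM, 315 to 319 CPM), horizontal basal cell (533 CPM, 336 to 360 CPM) and skeletal muscle markers (583 CPM, 6.29 to 9.54 CPM). It also held for bulb and oligodendrocyte markers in OMP_IGF1R 18 (1276 CPM, 1348 to 1361 CPM) and in IGF1R_flfl 2 (3215 CPM, 1362 to 1602 CPM). The muscle sum in IGF1R_flfl 2 also passed (16.7 CPM, 5.81 to 6.74 CPM), but 11.4 CPM of it came from Pvalb alone. Acta1 (0.53 CPM) and Ckm (0.69 CPM) were not highest of the group there. In IGF1R_flfl 3, fibroblast markers (2007 CPM, 2645 to 2695 CPM) and macrophage markers (132 CPM, 173 to 180 CPM) were below the rest.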

How the results depend on the processing

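The number of genes called, 1425, was 569 to 1477 with 1 library left out (841 when IGF1R_flfl 1 was left out, 886 for IGF1R_flfl 3, 724 for OMP_IGF1R 11, 613 for OMP_IGF1R 12 and 569 for OMP_IGF1R 18). The 4 guidance genes called higher became 1 to 4 and the 6 called lower 4 to 8. The median of the guidance genes, 0.01, ran from -0.02 to 0.07. Counts in the related lists ran from 1 to 3 higher and 0 to 1 lower (guidance partners, 2 and 0), 3 to 6 higher and 2 to 4 lower (growth cone, 4 and 3), and 0 to 2 higher and 0 to 1 lower (adhesion, 0 and 1).

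Scaling to mature neuron markers gave 13210 called genes, 99.1% of them higher, 45 guidance genes higher and 0 lower with a median of 0.57, 16 partners, 39 growth cone genes and 15 adhesion genes higher, and 0 growth cone and 0 adhesion genes lower. It turned the sign of Efna3 (0.04), Efna5 (0.27), Epha5 (0.14), Ephb1 (0.30), Nrp2 (0.51), Ntn1 (0.55), Robo2 (0.45), Sema3e (0.09), Sema7a (0.13), Slit1 (0.11) and Unc5b (0.11). DESeq2 called 2105 genes and 10 guidance genes lower, and with limma voom it gave 1 partner lower and 1 adhesion gene higher each; upper-quartile factors also gave 1 adhesion gene higher. Without IGF1R_flfl 2 and OMP_IGF1R 17, 2 guidance genes were higher with a median of 0.06, 3 partners were higher, and 2 adhesion genes were higher and 0 lower. Apart from the rise that scaling to mature neuron markers had to give, the causes were not tested.

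Signs near 0 also turned for Nrp2 without IGF1R_flfl 1 (0.08; range with 1 library left out -0.12 to 0.08), for Ntn1 with upper-quartile factors (0.01), without OMP_IGF1R 17 (0.01) and without IGF1R_flfl 3 (0.05; range -0.06 to 0.05), and for Plxnb2 without OMP_IGF1R 11 (-0.00047), without IGF1R_flfl 2 (-0.05) and without both IGF1R_flfl 2 and OMP_IGF1R 17 (-0.02). Of the fold changes of the 23 guidance genes listed in the processing rule, 290 values under alternatives kept sign and call, 43 kept the sign but lost the call, 15 kept the sign and gained a call, and 18 changed sign, with or without a change of call.

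No paired analysis was possible because the groups share no replicate numbers. Dcc, Robo3, Ntn5 and the Eph receptors that were not tested rest on few counts, which limits the precision of their values.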
